A study of Lupinus albus with 12 samples.

Results

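Proteoid roots of phosphorus-deficient white lupin (Lupinus albus var. Ultra) were compared with roots of phosphorus-sufficient plants by RNA sequencing. The comparison uses 6 of the 12 libraries of the series, 3 from deficient and 3 from sufficient roots, and every sequence at 1 RPKM or more in at least 3 of these 6 libraries. That rule keeps 69953 of the 125535 sequences in the deposited table, of which 51551 (73.7%) carry an informative description, under 8429 distinct descriptions. RPKM stands for reads scaled by sequence length and library size. Both root groups and their leaves came from chamber-grown plants at 20/15 °C with a 16 h day and 300 µmol of light, harvested 14 days after emergence. The nutrient solution held 1 mM calcium phosphate for the sufficient plants, in place of which the deficient ones had 1 mM calcium sulfate. The labels give 3 biological replicates for each condition and do not say whether plants were pooled, and one field speaks of soil where another speaks of solutions. The deficient samples are labelled proteoid roots and the others roots, so the type of root and the supply cannot be told apart.

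Proteoid or cluster roots are dense groups of short lateral rootlets that white lupin makes when phosphate is scarce. They are known for releasing citrate, malate, protons and acid phosphatase, which free phosphate from soil minerals and from organic matter. In plants generally, low phosphate also leads cells to take up more phosphate, to replace membrane phospholipids with galactolipids and sulfolipids, and to release phosphate from nucleic acids. Phosphate shortage and iron handling are linked, because phosphate binds iron in soil and in the plant.

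The 6 libraries were separated first by replicate number and then by supply, as the plot of principal components shows. The first component carried 64.1% of the variance and set replicate 1 of both groups apart from replicates 2 and 3. Per the labels' protocols, replicate 1 libraries were run unbarcoded with a lane each, and the others were barcoded and shared lanes. The second component, with 20.5%, placed the 3 sufficient libraries between -68.6 and -49.8 and the 3 deficient ones between 47.5 and 75.6. Sequencing format, taken as a term, was itself called in 41.7% of sequences. That term sets replicate 1 against replicates 2 and 3, so format cannot be told apart from anything else particular to replicate 1. Changes are therefore given with 2 limma tests: group means alone, and the same with the replicate number as a block. All changes are deficient minus sufficient on log2(RPKM + 0.5), called at an adjusted p below 0.05.

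**Figure D1:**
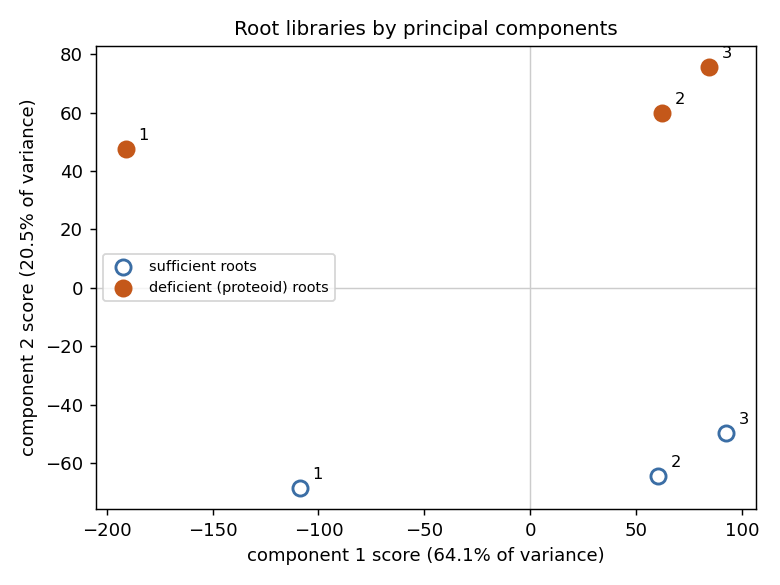
Each point is 1 root library by its scores on the first (x) and second (y) principal components of log2(RPKM + 0.5) over 69953 sequences, with filled circles for deficient and open circles for sufficient roots and the replicate number beside each. Replicate 1 lies at -108.7 and -191 on the first component and the other 4 libraries between 60.4 and 92.4, while the second component separates the groups.

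Without the block limma called 87 sequences (0.124% of those tested), 86 higher (0.123%) and 1 lower (0.00143%) in proteoid roots, and 5380 passed an unadjusted p below 0.05, 3080 of them higher. With the block 2051 were called (2.93%), 1125 higher (1.61%) and 926 lower (1.32%), and these include all 87. Below, "rose" and "fell" are used of sequences that passed with the block, and those that passed without it as well are said to have passed both tests. The block fit has 2 residual degrees of freedom against 4, and it called 54, 66 and 0 sequences when the pair of replicate 1, 2 or 3 was left out. Without the block, leaving out single libraries gave 16, 8 and 6 calls for sufficient replicates 1 to 3 and 97, 9 and 10 for deficient ones. With median-of-ratios scaling 90 sequences were higher and 10 lower. Groups that do not overlap (every deficient library on one side of every sufficient one) were found for 12.7% of all sequences tested, 7.7% with the deficient group higher and 5% with it lower. The filter can be passed through one group alone, so the counts by gene group that follow describe the sequences that passed it. Their background is the share over all sequences, 1.61% higher and 1.32% lower with the block. In whole roots a change in a transcript cannot be told apart from a change in the share of the cells that hold it.

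Acid phosphatases gave the largest rise. The secreted purple acid phosphatase PAP10 (LAGI01_35427), which frees phosphate from organic compounds, stood at 0.3, 0.7 and 0.8 RPKM in sufficient roots of replicates 1 to 3 and at 147.6, 183.1 and 202.8 in proteoid roots. All 3 sufficient libraries held it below 1 RPKM and the groups were far apart (log2 change 7.36, SE 0.273, limma adjusted p = 0.0019, and 0.000349 with the block). Other PAP10 sequences that passed both tests were LAGI01_21085 (log2 change 6.57, SE 0.266), LAGI01_49867 (log2 change 5.70, SE 0.24) and LAGI01_74776 (log2 change 5.55, SE 0.273). The remaining 5 of the 9 PAP10 sequences tested did not pass either test, and the median of the 9 was -0.16, so sequences of one description behaved differently. How reads were shared between such copies is not given in the sources used here, and the division of reads between them is uncertain.

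PAP12, also a secreted phosphatase in Arabidopsis, rose in 2 of 4 sequences. LAGI01_29803 went from 2.8, 0.6 and 0.7 to 37.2, 13.2 and 12.4 RPKM, with replicate 1 highest in both groups and no overlap (log2 change 3.53, SE 0.577, limma adjusted p = 0.133, and 0.000962 with the block). The single tested sequence of ATACP5, the Arabidopsis PAP17, stood at 2.3, 2.3 and 3.2 and then 20.4, 10.5 and 10.7 RPKM (LAGI01_79787, log2 change 2.16, SE 0.307, limma adjusted p = 0.0866, and 0.0218 with the block). Of all 52 purple acid phosphatases that passed the filter (60 in the table), 11 rose, 0 fell and 4 passed both tests, with a median change of 0.10 against 0.00 over all sequences tested. Among sequences described only as phosphatase 12 of 16 rose and 9 passed both tests, with a median of 2.64. The one with the largest change, LAGI01_58330, stood at 0.6, 0.6 and 0.3 and then 45.2, 14.2 and 19.9 RPKM (log2 change 4.60, SE 0.426, limma adjusted p = 0.0269, and 0.0049 with the block). Its leaves went from 0.9, 1.6 and 0.4 to 5.0, 75.9 and 13.4 RPKM, and the difference between the root and the leaf response did not pass limma (adjusted p = 0.911).

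Enzymes that release phosphate from nucleic acids rose in part. RNS2, a ribonuclease of the vacuole and endomembranes, rose in 4 of 4 sequences, and LAGI01_40028 went from 9.3, 6.7 and 6.6 to 35.7, 25.5 and 27.4 RPKM (log2 change 1.90, SE 0.251, limma adjusted p = 0.0691, and 0.00694 with the block). A ribonuclease T2 family protein (LAGI01_58138) was already abundant at 131.1, 138.5 and 142.4 RPKM in sufficient roots and reached 489.1, 458.6 and 357.9 (log2 change 1.65, SE 0.263, limma adjusted p = 0.128, and 0.019 with the block). BFN1, a nuclease known from senescing tissue, rose in 1 of 2 sequences (LAGI01_32320, 7.1, 6.7 and 6.4 to 23.7, 15.0 and 13.6 RPKM, limma adjusted p = 0.229, and 0.0316 with the block). Of 16 ribonucleases and nucleases 5 rose and 0 fell, with a median of -0.06, and none passed limma without the block (6 at an unadjusted p below 0.05). The T2 protein is outside this list. The groups of RNS2 and of the T2 protein did not overlap.

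Phosphate carriers rose in 16 of 69 sequences tested (93 in the table) and fell in 0, with a median of 0.33. The largest rises belonged to PHT5, described as an inorganic phosphate transporter. LAGI01_79525 stood at 0.9, 4.5 and 2.8 RPKM in sufficient and 102.6, 68.1 and 90.2 in proteoid roots (log2 change 4.92, SE 0.48, limma adjusted p = 0.0296, and 0.00994 with the block), and LAGI01_86377 at 0.7, 1.0 and 1.1 and then 44.1, 24.5 and 22.0 (log2 change 4.36, SE 0.307, limma adjusted p = 0.0116, and 0.00468 with the block). Both passed both tests with wide gaps between the groups. LAGI01_103126 rose with the block (0.0, 1.6 and 0.3 to 14.7, 13.2 and 16.0 RPKM, limma adjusted p = 0.0626, and 0.0148 with the block). The other 5 PHT5 sequences passed neither test, among them the most abundant, LAGI01_18482, at 88.1, 142.1 and 130.3 and 49.3, 125.8 and 94.3 RPKM, where the groups overlapped and replicate 1 was lowest in both.

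ATPT2, a high-affinity phosphate uptake carrier, rose in 3 of 6 sequences. LAGI01_20605 ranged from 6.5 to 7.3 RPKM in sufficient roots and stood at 17.7, 29.3 and 21.9 in proteoid roots (log2 change 1.65, SE 0.249, limma adjusted p = 0.107, and 0.02 with the block). PHO1, which loads phosphate into the xylem, rose in 8 of 21 sequences, with LAGI01_29617 at 5.0, 3.9 and 3.2 and then 13.2, 9.1 and 9.6 RPKM (log2 change 1.30, SE 0.246, limma adjusted p = 0.191, and 0.0178 with the block). A sequence described as carrying both sugars and phosphate (LAGI01_24353, 3.2, 3.3 and 4.9 to 11.8, 20.5 and 17.1 RPKM, limma adjusted p = 0.0898, and 0.0139 with the block) and a putative glycerol-3-phosphate transporter (LAGI01_11445, 2.5, 1.4 and 1.6 to 13.0, 6.4 and 6.5 RPKM, limma adjusted p = 0.15, and 0.00806 with the block) rose as well. All 4 of these had groups that did not overlap, and none passed without the block.

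**Figure D2:**
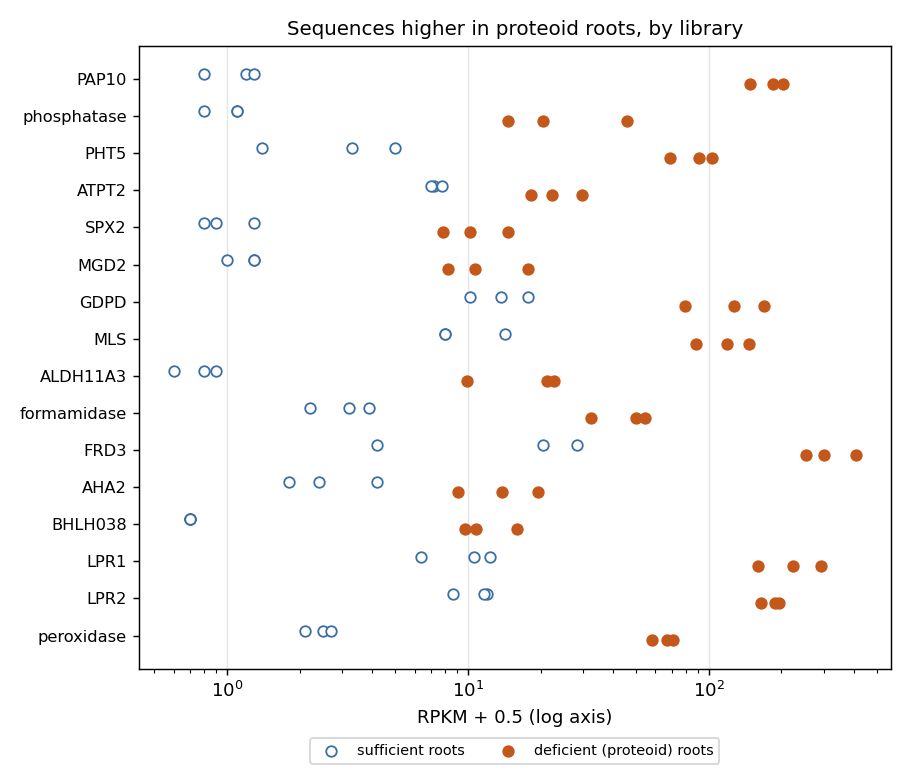
Each row is a named sequence and each point 1 root library, plotted as RPKM + 0.5 on a log axis, with open circles for sufficient and filled circles for deficient roots. In all 16 rows the 3 deficient libraries lie above the 3 sufficient ones, with the widest gap for PAP10. PHT5 is LAGI01_79525, MLS LAGI01_77756, FRD3 LAGI01_21605 and AHA2 LAGI01_83100.

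Transcripts of phosphate signalling moved in both directions. SPX proteins bind inositol phosphates and hold back the transcription factor PHR1 when phosphate is plentiful. Of 14 SPX sequences 13 rose, 7 passed both tests and the median was 2.76. SPX2 rose in 9 of 9 sequences, and LAGI01_46243 went from 0.8, 0.3 and 0.4 to 14.2, 7.4 and 9.7 RPKM (log2 change 3.44, SE 0.302, limma adjusted p = 0.0253, and 0.00119 with the block). SPX3 rose in 4 of 4, and LAGI01_46560 was listed at 0.0, 0.1 and 0.1 RPKM in sufficient roots and stood at 7.6, 5.4 and 8.1 in proteoid roots (log2 change 3.72, SE 0.225, limma adjusted p = 0.00634, and 0.00317 with the block). In leaves SPX2 went from 0.7, 2.4 and 1.5 to 2.2, 18.8 and 5.1 RPKM, and the root and leaf responses did not pass limma as different (adjusted p = 0.902).

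PHO2, an enzyme that marks phosphate carriers for breakdown and so limits uptake in well-supplied plants, fell in 9 of 14 sequences. LAGI01_2053 dropped from 28.8, 29.7 and 23.0 to 5.1, 2.3 and 1.7 RPKM and LAGI01_46287 from 16.9, 17.3 and 12.2 to 3.2, 1.5 and 1.5, with no overlap in either. Their log2 changes were log2 change -3.08 and log2 change -2.68 (limma adjusted p = 0.0588, and 0.00806 with the block for the first and limma adjusted p = 0.0526, and 0.00733 with the block for the second). Changes of the 14 sequences ran from -3.08 to 0.76 around a median of -2.53. PHF1, which phosphate carriers need to leave the endoplasmic reticulum, rose in 6 of 6 sequences (LAGI01_57459, 16.0, 11.8 and 9.8 to 36.9, 25.8 and 28.9 RPKM, limma adjusted p = 0.254, and 0.0231 with the block). WRKY75, a factor tied to phosphate starvation in Arabidopsis, fell in 2 of 5, and in LAGI01_51846 the groups overlapped, at 7.6, 27.2 and 28.8 and 3.7, 10.8 and 13.6 RPKM (log2 change -1.10, limma adjusted p = 0.84, and 0.0281 with the block). Replicate 1 was lowest in both groups there, and each deficient library lay below the sufficient one of its own number.

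NF-YA subunits are parts of CCAAT-binding factors whose messages are cut by a microRNA in Arabidopsis. Of 39 sequences 14 rose and 0 fell, with a median of 0.51. NF-YA2 rose in 12 of 12, and LAGI01_51543 passed both tests, from 4.3, 3.9 and 3.2 to 16.0, 13.8 and 14.7 RPKM (log2 change 1.84, SE 0.199, limma adjusted p = 0.0425, and 0.00813 with the block). The single NF-YA10 sequence (LAGI01_31373) rose from 12.0, 8.7 and 7.3 to 53.9, 33.1 and 25.7 RPKM (log2 change 1.91, SE 0.346, limma adjusted p = 0.172, and 0.00815 with the block). Neither had overlapping groups, and the 3 NF-YA2 values of each group lay close together.

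Several membrane lipid enzymes rose. Of 63 galactolipid and sulfolipid synthases 23 rose, 1 fell and 5 passed both tests, with a median of 0.39. MGD2, a galactolipid synthase known to respond to phosphate shortage, rose in 11 of 11 sequences. LAGI01_25059 went from 0.5, 0.8 and 0.8 to 17.2, 7.8 and 10.2 RPKM (log2 change 3.29, SE 0.309, limma adjusted p = 0.0273, and 0.01 with the block). MGD1, the main enzyme of chloroplast galactolipids, did the reverse where it passed: 1 of 5 sequences fell, and the 5 changes ran from -1.03 to -0.27. SQD2, the last enzyme of sulfolipid synthesis, rose in 12 of 19, with LAGI01_35670 at 5.7, 3.5 and 3.7 and then 22.8, 13.8 and 14.2 RPKM (log2 change 1.85, SE 0.294, limma adjusted p = 0.126, and 0.00694 with the block).

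On the breakdown side, glycerophosphodiester phosphodiesterases, which split the head groups left by phospholipid breakdown, rose in 12 of 35 sequences (44 in the table), and 8 of them passed both tests. LAGI01_32637 stood at 3.5, 3.6 and 4.4 RPKM in sufficient and 26.3, 37.1 and 41.5 in proteoid roots (log2 change 3.01, SE 0.25, limma adjusted p = 0.0215, and 0.00256 with the block). LAGI01_40116 was more abundant, at 9.7, 13.2 and 17.2 and then 79.0, 126.1 and 169.1 RPKM (log2 change 3.14, SE 0.372, limma adjusted p = 0.0558, and 0.00198 with the block), and SRG3 (LAGI01_69328), of the same enzyme family, went from 7.1, 8.0 and 12.2 to 62.4, 107.4 and 159.1 (log2 change 3.46, SE 0.406, limma adjusted p = 0.0558, and 0.00274 with the block). In all 3 the groups stood apart, and replicate 3 was highest in both groups of each. The median of the 35 was -0.07. PLDP1, a phospholipase D of the zeta kind (LAGI01_3168, 2.1, 1.2 and 1.7 to 16.5, 8.2 and 9.5 RPKM, limma adjusted p = 0.0658, and 0.00477 with the block), was the single riser among 139 phospholipases C and D. Lipid phosphate phosphatases rose in 2 of 48, LPP2 (LAGI01_76393, log2 change 2.00, limma adjusted p = 0.0545, and 0.00957 with the block) and a phosphatidic acid phosphatase (LAGI01_92953, log2 change 1.93, limma adjusted p = 0.0592, and 0.00704 with the block).

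Among enzymes of organic acid metabolism the calls lay in some and not in most others. Malate synthase MLS, an enzyme of the glyoxylate cycle that joins acetyl-CoA and glyoxylate to malate, rose in all 4 sequences that passed the filter. LAGI01_69392 went from 5.1, 7.6 and 5.9 to 46.8, 69.9 and 54.7 RPKM (log2 change 3.10, SE 0.265, limma adjusted p = 0.0225, and 0.00156 with the block), LAGI01_77756 from 7.5, 13.8 and 7.5 to 87.9, 146.5 and 117.9 (log2 change 3.57, SE 0.343, limma adjusted p = 0.0291, and 0.00182 with the block) and LAGI01_27673 from 12.2, 29.5 and 21.7 to 128.0, 254.3 and 210.7 (log2 change 3.23, SE 0.425, limma adjusted p = 0.0689, and 0.00181 with the block). The groups did not overlap in any of them, and replicate 2 was highest in both groups of each. The list of MLS and of the other enzyme of that cycle, isocitrate lyase ICL, holds 10 sequences in the table, and the 4 that passed the filter are all MLS.

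Phosphoenolpyruvate carboxylase, which makes oxaloacetate from bicarbonate, and its activating kinase rose in 13 of 35 sequences and fell in 0, with a median of 0.64. ATPPC3 rose in 5 of 9 (LAGI01_74442, 1.4, 3.2 and 1.3 to 5.2, 10.6 and 9.2 RPKM, limma adjusted p = 0.22, and 0.0189 with the block) and ATPPC1 in 2 of 9 (LAGI01_66206, 4.8, 4.0 and 5.3 to 13.4, 26.4 and 19.3 RPKM, limma adjusted p = 0.111, and 0.0248 with the block). PPCK1, the kinase, rose in 4 of 8 (LAGI01_44806, 4.4, 6.9 and 9.7 to 11.4, 14.7 and 20.0 RPKM, limma adjusted p = 0.454, and 0.0258 with the block). Carbonic anhydrase CA2, which makes the bicarbonate, rose in 7 of 10, with LAGI01_85914 at 10.6, 21.0 and 24.9 and then 49.3, 61.6 and 92.4 RPKM (log2 change 1.86, SE 0.407, limma adjusted p = 0.254, and 0.013 with the block). Of 160 malate dehydrogenases, citrate synthases, aconitases and related enzymes 2 rose (1.25%, against 1.61% over all sequences) and 0 fell, with a median of 0.13. Both are cytosolic malate dehydrogenases, and the larger change was in an abundant sequence (LAGI01_31867), at 114.3, 88.7 and 79.3 RPKM in sufficient and 206.3, 197.8 and 201.8 in proteoid roots (log2 change 1.11, SE 0.263, limma adjusted p = 0.288, and 0.0382 with the block).

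The non-phosphorylating glyceraldehyde-3-phosphate dehydrogenase ALDH11A3, which bypasses a phosphate-using step of glycolysis, rose in 3 of 3 sequences, and all 3 passed both tests. LAGI01_24999 was listed at 0.1, 0.3 and 0.4 RPKM in sufficient roots and stood at 9.4, 20.8 and 22.2 in proteoid roots (log2 change 4.48, SE 0.362, limma adjusted p = 0.0197, and 0.00119 with the block). Leaves already held 26.7, 11 and 11.3 RPKM with sufficient phosphorus and 30.7, 21.1 and 7.3 without, and the root response exceeded the leaf response (difference 4.31, limma adjusted p = 0.0324). GAPC1, the phosphorylating enzyme of the same step, rose in 4 of 12, and in LAGI01_76915 the groups overlapped (1.2, 3.6 and 8.1 and 3.9, 15.1 and 33.1 RPKM, log2 change 1.76, limma adjusted p = 0.742, and 0.0137 with the block). Of all 133 sequences listed for glycolytic bypass enzymes, sucrose synthase and related steps, the 3 of ALDH11A3 were the ones that rose, and 0 fell. Invertases, which cleave sucrose by another route, are outside that list. In the MapMan class of sucrose degradation 9 of 136 sequences fell and 1 rose, and CINV1 fell in 2 of 3 and ATCWINV1 in 4 of 10. The MapMan class of cytosolic glycolysis had 24 rises among 236 sequences. The abundant enolase LOS2 (LAGI01_66758) stood at 265.3, 257.3 and 218.1 and 429.8, 605.0 and 708.0 RPKM, and missed the threshold (log2 change 1.21, limma adjusted p = 0.323, and 0.0579 with the block).

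Formamidase, which turns formamide into formate and ammonia, and formate dehydrogenase rose in all 14 sequences that passed the filter, of 15 in the table, with a median of 2.69. Formamidase LAGI01_48402 went from 1.7, 3.4 and 2.7 to 31.8, 49.5 and 53.9 RPKM (log2 change 3.88, SE 0.319, limma adjusted p = 0.0211, and 0.000962 with the block), and 4 of its 7 sequences passed both tests. Formate dehydrogenase LAGI01_30689 went from 8.6, 12.6 and 11 to 37.3, 44.8 and 45.1 RPKM (log2 change 1.94, SE 0.243, limma adjusted p = 0.0626, and 0.00733 with the block), and none of its 7 sequences passed without the block. Neither of these had overlapping groups.

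The pentose phosphate pathway, which supplies reducing power, rose in 7 of 122 sequences and fell in 0. Among them were a transaldolase (LAGI01_74137, 0.4, 0.8 and 0.9 to 2.5, 7.4 and 5.2 RPKM, limma adjusted p = 0.176, and 0.0137 with the block), 6-phosphogluconate dehydrogenase (LAGI01_40249, 25.8, 18.4 and 15.4 to 48.6, 58.7 and 48.5 RPKM, limma adjusted p = 0.209, and 0.0335 with the block) and glucose-6-phosphate dehydrogenase G6PD6 (LAGI01_29223, 9.6, 10.6 and 9.3 to 14.9, 24.8 and 22.5 RPKM, limma adjusted p = 0.343, and 0.0496 with the block). Sucrose-phosphatase SPP1, the last step of sucrose synthesis, rose as well (LAGI01_33680, log2 change 1.24, limma adjusted p = 0.22, and 0.0214 with the block). Trehalose-6-phosphate phosphatases, which remove a sugar signal, split: LAGI01_67801 rose (log2 change 1.77, limma adjusted p = 0.482, and 0.0122 with the block), and LAGI01_50142 fell from 7.9, 7.9 and 7.9 to 1.6, 3.4 and 3.3 RPKM (log2 change -1.42, limma adjusted p = 0.207, and 0.0366 with the block). Glutamine synthetase ATGSR1, which fixes ammonia (LAGI01_62788, log2 change 1.97, limma adjusted p = 0.0658, and 0.0119 with the block), the outer mitochondrial pore VDAC1 (LAGI01_39511, log2 change 1.41, limma adjusted p = 0.195, and 0.0211 with the block) and cytochrome c CYTC-1 (LAGI01_84218, log2 change 1.58, limma adjusted p = 0.456, and 0.0195 with the block) rose. Alternative oxidase and external NADH dehydrogenases, routes of respiration that save phosphate, had 0 of 38 called by limma with either test, against 2 at an unadjusted p below 0.05 without the block and 6 higher and 3 lower with it.

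Citrate exporters of the FRD3 kind rose in part. FRD3, a citrate exporter of the MATE family that loads iron and citrate into the xylem in Arabidopsis, rose in 9 of 12 sequences, and 3 passed both tests. LAGI01_20061 went from 2.4, 4.7 and 4.2 to 73.1, 70.5 and 58.6 RPKM (log2 change 4.03, SE 0.289, limma adjusted p = 0.0125, and 0.00322 with the block). LAGI01_21605 was the most abundant, at 3.7, 19.9 and 27.8 RPKM in sufficient roots and 253.1, 298.9 and 408.5 in proteoid roots (log2 change 4.55, SE 0.712, limma adjusted p = 0.121, and 0.0121 with the block), with the lowest sufficient value in replicate 1. In total, FRD3 and other MATE proteins rose in 16 of 56 sequences and fell in 0, with a median of 0.62. Another member with no symbol (LAGI01_35458) changed by log2 change 2.04 (limma adjusted p = 0.0557, and 0.0207 with the block). Malate channels of the ALMT kind did not follow: 0 of 11 were called with either limma test, 0 passed an unadjusted p below 0.05 in either, and their median was -0.02.

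Plasma membrane proton pumps AHA, which acidify the soil around roots, rose in 10 of 53 sequences and fell in 0, with a median of 0.24. AHA2 LAGI01_83100 was scarce at 1.3, 3.7 and 1.9 RPKM in sufficient roots and stood at 8.6, 19.1 and 13.4 in proteoid roots (log2 change 2.36, SE 0.407, limma adjusted p = 0.15, and 0.00358 with the block). The abundant LAGI01_47105 went from 116.8, 146.2 and 118.0 to 214.9, 449.1 and 400.9 RPKM (log2 change 1.42, SE 0.358, limma adjusted p = 0.335, and 0.039 with the block). The potassium carrier ATKT1 (LAGI01_10113) rose from 1.1, 3.3 and 4.8 to 18.4, 49.1 and 39.7 RPKM (log2 change 3.40, SE 0.547, limma adjusted p = 0.129, and 0.0032 with the block), and 2 of its 13 sequences in the table passed the filter. Of these 3 sequences none passed without the block and none had overlapping groups. Among 95 aquaporins 2 rose and 2 fell, with a sequence of the water channel PIP2F (LAGI01_79428) going from 1.6, 1.7 and 0.8 to 18.3, 29.0 and 8.5 RPKM (log2 change 3.23, SE 0.46, limma adjusted p = 0.0866, and 0.00447 with the block) and one of PIP2A (LAGI01_44573) falling (log2 change -0.95, limma adjusted p = 0.822, and 0.0405 with the block). The riser was the 1 called of 6 PIP2F sequences, whose median was -0.36. Together those 6 summed to 588.0, 259.9 and 261.8 RPKM in sufficient and 640.1, 244.3 and 202.6 in proteoid roots.

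Several further membrane proteins passed both tests. A putative nodulin, a name from legume nodules that does not state a function (LAGI01_74540), was listed at 0.0, 0.3 and 0.2 RPKM in sufficient roots and at 12.5, 26.5 and 18.9 in proteoid roots (log2 change 4.86, SE 0.322, limma adjusted p = 0.00937, and 0.000869 with the block). A nodulin MtN21 family protein (LAGI01_39882) had very close replicates, at 5.5, 5.6 and 5.2 and then 29.6, 26.6 and 28.2 RPKM (log2 change 2.27, SE 0.191, limma adjusted p = 0.0225, and 0.00379 with the block). The ABC transporter PDR6 (LAGI01_20132) went from 0.1, 0.3 and 0.2 to 6.2, 4.7 and 4.2 RPKM (log2 change 2.98, SE 0.229, limma adjusted p = 0.0176, and 0.00733 with the block) and the peptide carrier PTR2 (LAGI01_23973) from 0.2, 0.7 and 0.5 to 5.6, 4.4 and 4.5 (log2 change 2.49, SE 0.254, limma adjusted p = 0.0357, and 0.0137 with the block). None of these 4 had overlapping groups. ALS3, an ABC-type protein needed for aluminium tolerance in Arabidopsis, rose in 5 of 7 sequences (LAGI01_46065, log2 change 1.54, limma adjusted p = 0.291, and 0.0111 with the block).

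Nitrate, ammonium and sulfate carriers were divided, with 10 of 142 rising and 10 falling and a median of -0.31. The risers include 7 of 13 sequences of SULTR3;5, a sulfate carrier of the root vascular tissue in Arabidopsis. SULTR1;2, a high-affinity sulfate uptake carrier, fell in 2 of 9 (LAGI01_74007, 16.9, 18.5 and 12.9 to 3.6, 9.9 and 2.8 RPKM, limma adjusted p = 0.367, and 0.0401 with the block). ATNRT1:2, a low-affinity nitrate carrier, fell in 4 of 17, with LAGI01_16029 at 8.6, 13.6 and 11.5 and then 3.1, 6.1 and 5.3 RPKM (log2 change -1.16, SE 0.304, limma adjusted p = 0.356, and 0.0226 with the block).

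Of 15 sequences for the iron uptake regulators FIT (also FRU), BHLH038 and BHLH100, 11 rose and 0 fell, with a median of 1.95, and neither sequence for BHLH100 was called. BHLH038, a partner of FIT in Arabidopsis, was at 0.2, 0.2 and 0.2 RPKM in sufficient roots and at 9.2, 10.3 and 15.4 in proteoid roots (LAGI01_54427, log2 change 4.08, SE 0.229, limma adjusted p = 0.00496, and 0.00165 with the block), and 2 of its 4 sequences passed both tests. The sequence whose description includes FIT1 (LAGI01_33645) went from 1.3, 12.3 and 10.2 to 54.2, 135.6 and 116.7 RPKM (log2 change 3.93, SE 0.794, limma adjusted p = 0.219, and 0.0088 with the block), with replicate 1 lowest in both groups and no overlap. Those described as FRU alone rose in 8 of 8 (LAGI01_31032, 1.9, 3.0 and 3.8 to 10.4, 20.6 and 16.3 RPKM, limma adjusted p = 0.103, and 0.00733 with the block). Another bHLH factor with no symbol (LAGI01_44725) went from 0.4, 1.7 and 1.7 to 14.9, 39.5 and 31.0 RPKM (log2 change 4.04, SE 0.492, limma adjusted p = 0.059, and 0.000869 with the block).

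Of the 63 iron and metal carriers, storage proteins and chelating enzymes (104 in the table) 7 rose and 7 fell, with a median of 0.11. The iron exporter ATIREG1 (LAGI01_21878) passed both tests, from 3.8, 3.1 and 2.4 to 22.8, 20.8 and 17.3 RPKM (log2 change 2.54, SE 0.234, limma adjusted p = 0.0269, and 0.00282 with the block). All 7 falls were in YSL3, a carrier of metal-nicotianamine complexes, which fell in 7 of 11 sequences (LAGI01_55151, 11.6, 15.1 and 12.1 to 4.4, 4.4 and 3.6 RPKM, log2 change -1.53, SE 0.205, limma adjusted p = 0.0723, and 0.0133 with the block). The plastid iron store ferritin, part of it under descriptions outside that list, rose as ATFER1 in 13 of 19 sequences (LAGI01_81721, 6.2, 11 and 11.3 to 36.6, 40.9 and 64.2 RPKM, limma adjusted p = 0.111, and 0.00852 with the block), and as ATFER4 in 3 of 6 (LAGI01_75832, log2 change 1.79, limma adjusted p = 0.0514, and 0.0124 with the block). FRO2, the root iron reductase, did not pass (LAGI01_14166, 2.1, 7.7 and 8.4 and 9.0, 15.9 and 12.2 RPKM, log2 change 1.13, limma adjusted p = 0.696, and 0.0871 with the block). The groups of ATFER1, YSL3 and ATIREG1 did not overlap.

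The multicopper oxidases LPR1 and LPR2, ferroxidases that arrest root tips on low phosphate in Arabidopsis, were among the most abundant risers. LPR1 (LAGI01_52976) stood at 5.9, 10.1 and 11.8 RPKM in sufficient roots and 158.7, 223.3 and 292.5 in proteoid roots (log2 change 4.54, SE 0.366, limma adjusted p = 0.0197, and 0.000869 with the block). LPR2 (LAGI01_46294) stood at 8.2, 11.5 and 11.2 and then 164.6, 194.1 and 187.2 RPKM (log2 change 4.09, SE 0.251, limma adjusted p = 0.00634, and 0.000869 with the block). In both, each deficient library was far above each sufficient one. The other 3 LPR1 sequences were not called, and among 19 sequences of LPR and its SKU5 relatives these 2 were the only ones called with either test. The median of the 19 was -0.38, with 16 of them below 0 and 9 lower at an unadjusted p below 0.05 with the block. Of 27 laccases, related oxidases that act on lignin precursors, 0 were called by limma with either test (1 at an unadjusted p below 0.05 without the block, and 3 higher and 0 lower with it).

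**Figure D3:**
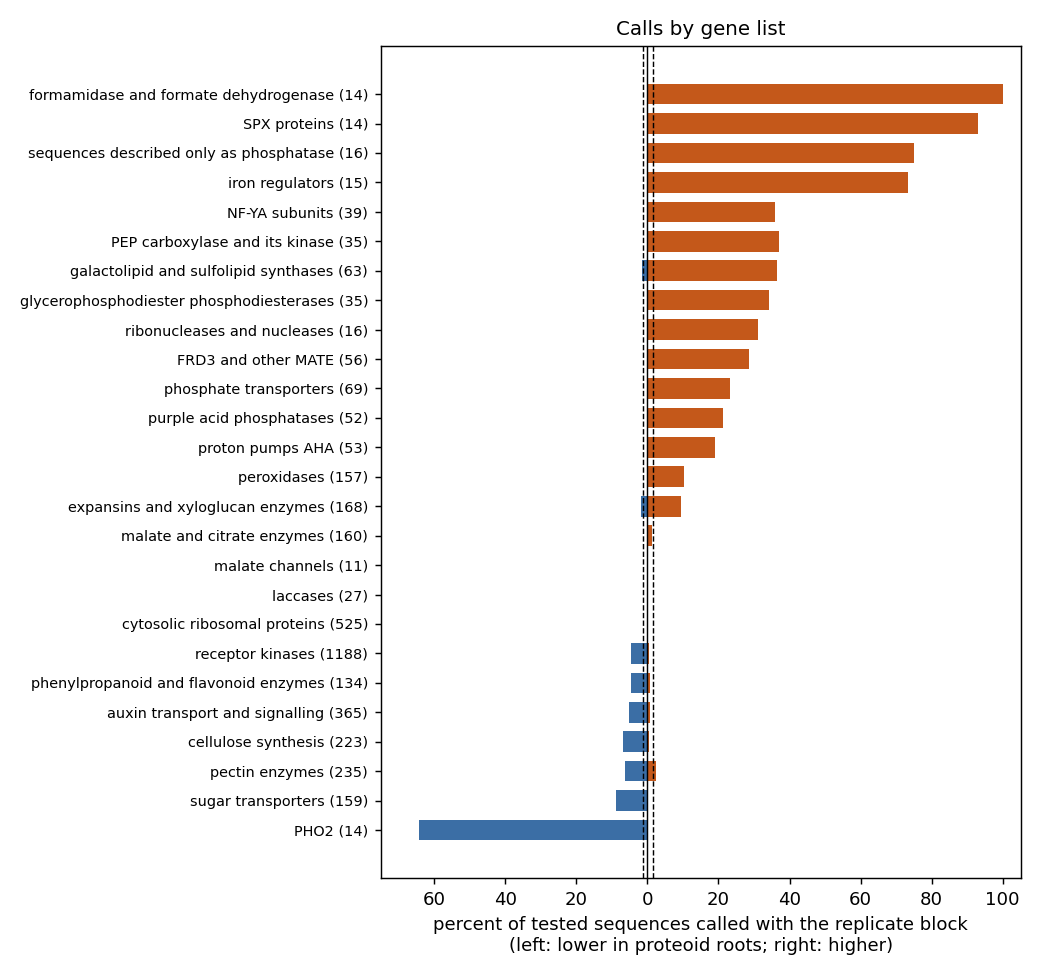
Bars give the percent of tested sequences of selected gene lists that rose (right) or fell (left) in proteoid roots with the replicate block, with the number of tested sequences in brackets and dashed lines at the shares over all sequences (1.61% and 1.32%). Of the lists drawn, formamidase and formate dehydrogenase, SPX proteins and phosphatases reach the highest shares of rises, and PHO2 the highest share of falls; the list of MLS and ICL, not drawn, had 4 of 4 rising.

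Secretory peroxidases, which act on wall polymers, rose in 16 of 157 sequences and fell in 0, and 4 passed both tests. LAGI01_45494 was steady within groups, at 2.0, 2.2 and 1.6 RPKM in sufficient and 70.5, 57.6 and 66.3 in proteoid roots (log2 change 4.75, SE 0.214, limma adjusted p = 0.00239, and 0.000869 with the block). The other 3 that passed both tests were LAGI01_58965 (log2 change 4.61, SE 0.186), LAGI01_72871 (log2 change 4.01, SE 0.205) and LAGI01_82379 (log2 change 3.65, SE 0.257). The median over all 157 was 0.23. Among 168 expansins and xyloglucan enzymes, which loosen walls, 16 rose and 3 fell. ATEXLB1 (LAGI01_53567) passed both tests, at 0.8, 1.2 and 1.3 and then 10.2, 9.1 and 6.9 RPKM (log2 change 2.53, SE 0.227, limma adjusted p = 0.0269, and 0.00953 with the block), and a xyloglucan endotransglycosylase (LAGI01_50570) rose from 12.3, 11.5 and 6.0 to 41.3, 60.8 and 29.8 RPKM (log2 change 2.09, SE 0.387, limma adjusted p = 0.177, and 0.00971 with the block). ATEXPA7, an expansin of root hairs, rose (LAGI01_57522, 4.3, 3.7 and 2.4 to 12.5, 12.6 and 5.8 RPKM, limma adjusted p = 0.346, and 0.0195 with the block), and ATEXPA9 fell (LAGI01_87411, 5.0, 3.2 and 3.2 to 0.7, 0.7 and 0.3 RPKM, limma adjusted p = 0.0724, and 0.0133 with the block).

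Pectin and cellulose enzymes had more falls than rises. Of 235 pectin enzymes 15 fell and 6 rose, with a median of -0.25. A pectinesterase (LAGI01_81839) dropped from 43.4, 50.0 and 39.7 to 7.9, 11.9 and 9.9 RPKM (log2 change -2.12, SE 0.247, limma adjusted p = 0.0557, and 0.00733 with the block) and PME38 (LAGI01_24877), another, from 127.8, 308.9 and 341.8 to 28.3, 126.4 and 105.1 (log2 change -1.71, SE 0.669, limma adjusted p = 0.61, and 0.0227 with the block), each without overlap. In cellulose synthesis 15 of 223 fell and 1 rose. CSLD3, a wall synthase of growing root hairs, fell in 6 of 8 (LAGI01_11332, 13.2, 12.5 and 9.7 to 6.1, 6.1 and 4.0 RPKM, limma adjusted p = 0.279, and 0.0253 with the block), CESA6 in 3 of 14 (LAGI01_67785, log2 change -0.98, limma adjusted p = 0.438, and 0.0327 with the block) and CESA1 in 4 of 15. The CESA6 changes of all 14 sequences lay between -1.06 and -0.59.

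Some sequences for the entry enzyme of phenylpropanoid synthesis fell as well. Of the 19 sequences described as pal1, a phenylalanine ammonia-lyase, 3 fell, with LAGI01_58321 at 64.8, 95.9 and 87.9 and then 9.4, 39.9 and 26.6 RPKM (log2 change -1.89, SE 0.531, limma adjusted p = 0.39, and 0.0373 with the block) and LAGI01_59366 at log2 change -1.94 (limma adjusted p = 0.229, and 0.00965 with the block). In all, 6 of 134 phenylpropanoid and flavonoid enzymes fell and 1 rose, with a median of -0.41. In the wider MapMan class of phenylpropanoids the counts were 14 higher and 15 lower of 256. The lignin methyltransferase ATOMT1 rose in 3 and fell in 4 of 22 sequences, with a median of 0.02, and LAGI01_49050 was one that rose (3.1, 2.9 and 3.6 to 11.8, 9.0 and 12.4 RPKM, limma adjusted p = 0.064, and 0.00971 with the block). A sequence described as transferase family protein rose (LAGI01_29984, 17.9, 13.3 and 10.1 to 78.3, 48.3 and 39.8 RPKM, limma adjusted p = 0.172, and 0.00736 with the block).

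Several sequences for lipid enzymes fell. ALPHA-DOX1, a fatty acid dioxygenase of stress responses, fell in 9 of 14 sequences, and LAGI01_101056 went from 68.3, 141.6 and 143.1 to 12.2, 52.6 and 38.1 RPKM (log2 change -1.92, SE 0.598, limma adjusted p = 0.454, and 0.0207 with the block). LOX1, a lipoxygenase, which starts the oxylipin pathway, fell in 2 of 39 sequences. One of them (LAGI01_62792) stood at 94.3, 186.7 and 207.8 and 31.8, 103.9 and 85.4 RPKM, where the groups overlapped and each deficient library was below its own pair (log2 change -1.22, limma adjusted p = 0.684, and 0.0389 with the block). The omega-3 desaturase FAD8 (LAGI01_75482, log2 change -1.66, limma adjusted p = 0.573, and 0.0237 with the block), the patatin-like lipase PLP6 (LAGI01_30891, 72.1, 146.7 and 134.4 to 25.3, 56.8 and 42.9 RPKM, limma adjusted p = 0.395, and 0.0148 with the block) and the acetyl-CoA carboxylase ACC1 (LAGI01_948, 54.6, 75.4 and 90.1 to 23.8, 30.7 and 25.6 RPKM, limma adjusted p = 0.212, and 0.0249 with the block) fell.

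**Figure D4:**
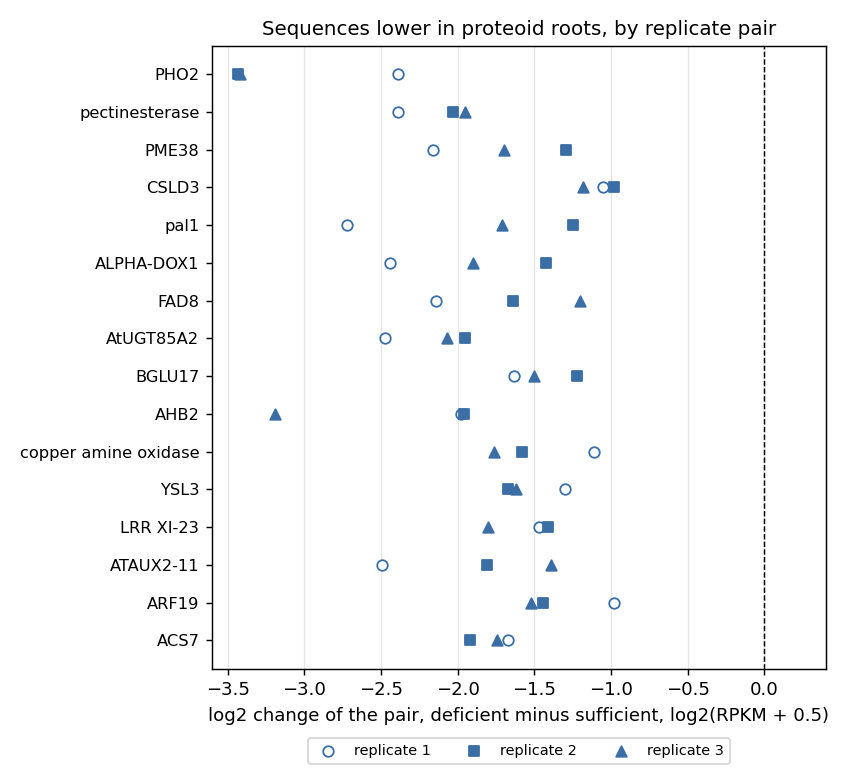
Each row is a named sequence and each point the log2 change of 1 replicate pair (deficient minus sufficient library of the same number), with circles, squares and triangles for replicates 1, 2 and 3 and a dashed line at 0. Every pair lies below 0 in all 16 rows.

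Sugar transfer and glycoside cleavage enzymes had more falls than rises, and most were not called. Of 334 UDP-glycosyltransferases by MapMan class 10 fell and 2 rose, with a median of -0.02, and of 308 glucosidases, galactosidases and mannosidases 17 fell and 2 rose, with a median of -0.18. The glycosyltransferases described as UGT74F1 (log2 change 2.95) and UGT73C1 (log2 change 1.33) rose. AtUGT85A2, a glucosyltransferase, fell in all 4 sequences that passed the filter (9 in the table), with LAGI01_55919 at 16.1, 34.3 and 26.3 and then 2.5, 8.5 and 5.9 RPKM (log2 change -2.16, SE 0.474, limma adjusted p = 0.254, and 0.00733 with the block). The beta-glucosidases BGLU17, in 5 of 28 sequences (LAGI01_53279, 55.4, 93.6 and 68.7 to 17.6, 39.9 and 23.9 RPKM, limma adjusted p = 0.352, and 0.0178 with the block), and BGLU32 (LAGI01_66998, log2 change -1.98, limma adjusted p = 0.064, and 0.0126 with the block) fell. The class-2 haemoglobin AHB2 (LAGI01_67056), which binds oxygen and nitric oxide, went from 8.6, 6.1 and 5.9 to 1.8, 1.2 and 0.2 RPKM (log2 change -2.38, SE 0.446, limma adjusted p = 0.187, and 0.0201 with the block), and a copper amine oxidase (LAGI01_17786) from 72.3, 74.0 and 73.5 to 33.2, 24.4 and 21.4 (log2 change -1.48, SE 0.258, limma adjusted p = 0.156, and 0.0226 with the block). Neither had overlapping groups, and the 3 sufficient values of the amine oxidase were nearly equal.

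Among 159 sugar transporters 14 fell and 0 rose, with a median of -0.14. An integral membrane protein that MapMan places among sugar carriers (LAGI01_81491) went from 20.1, 47.9 and 49.0 to 5.1, 14.4 and 15.4 RPKM (log2 change -1.74, SE 0.534, limma adjusted p = 0.447, and 0.00917 with the block), and a putative sugar transporter (LAGI01_62661) from 10.5, 23.5 and 24.9 to 3.3, 11.1 and 11.2 (log2 change -1.23, limma adjusted p = 0.685, and 0.0267 with the block), where deficient replicates 2 and 3 lay above sufficient replicate 1. Receptor kinases fell in 55 of 1188 sequences (4.63%, against 1.32% over all sequences) and rose in 5 (0.421%, against 1.61%), with a median of -0.23. The leucine-rich repeat kinase LRR XI-23 fell in 6 of 13, with LAGI01_14255 at 5.6, 7.2 and 6.8 and then 1.7, 2.4 and 1.6 RPKM (log2 change -1.56, SE 0.208, limma adjusted p = 0.0714, and 0.0128 with the block). FER, a receptor kinase that governs cell growth, was among the rises with 2 of 14 (LAGI01_7080, 1.6, 1.1 and 1.0 to 8.9, 3.6 and 3.0 RPKM, limma adjusted p = 0.323, and 0.0303 with the block).

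The list of auxin transport and signalling had 19 falls (5.21%) and 3 rises (0.822%) among 365 sequences, with a median of -0.24. The balance depends on the grouping, since the MapMan class of auxin metabolism and response had 10 rises (2.85%) and 4 falls (1.14%) of 351, with a median of -0.10. The Aux/IAA repressor ATAUX2-11 fell in 8 of 15, and LAGI01_52560 went from 18.1, 37.8 and 44.1 to 2.8, 10.4 and 16.5 RPKM (log2 change -1.90, SE 0.654, limma adjusted p = 0.524, and 0.0224 with the block), and the response factors ARF19, in 3 of 16 (LAGI01_25720, 5.8, 4.4 and 4.1 to 2.7, 1.3 and 1.1 RPKM, limma adjusted p = 0.279, and 0.0246 with the block) and NPH4, also ARF7 (LAGI01_47077, log2 change -1.59, limma adjusted p = 0.241, and 0.0375 with the block), fell. ARF7 and ARF19 start lateral roots in Arabidopsis. DFL1, which conjugates auxin, rose in 2 of 8 (LAGI01_66782, 4.3, 1.9 and 2.4 to 14.4, 11.9 and 9.3 RPKM, log2 change 1.92, SE 0.315, limma adjusted p = 0.134, and 0.0133 with the block). ATAUX2-11 had groups that nearly met, with its highest deficient library at replicate 3 and its lowest sufficient library at replicate 1.

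Of the other hormones, the ethylene list had 5 falls (3.14%) and 0 rises among 159 sequences. The MapMan ethylene class had 5 of each among 219 (2.28% each), against 1.61% rising and 1.32% falling over all sequences. The synthesis enzyme ACS7 (LAGI01_35615) went from 4.6, 13.5 and 14.2 to 1.1, 3.2 and 3.9 RPKM (log2 change -1.78, SE 0.545, limma adjusted p = 0.447, and 0.00787 with the block) and the repressor ERF4 (LAGI01_51064) from 21.8, 64.0 and 44.4 to 6.2, 23.4 and 22.2 (log2 change -1.38, limma adjusted p = 0.687, and 0.0289 with the block). On the gibberellin list 2 of 73 sequences rose (2.74%) and 5 fell (6.85%), whereas in the MapMan gibberellin class 11 of 114 rose (9.65%) and 5 fell (4.39%). The inactivating enzyme ATGA2OX1 (LAGI01_45831, log2 change 1.65, limma adjusted p = 0.136, and 0.0377 with the block) rose, while GA2OX6 of the same kind (LAGI01_58367, log2 change -1.09, limma adjusted p = 0.627, and 0.0236 with the block) and the DELLA repressor RGA1 (LAGI01_2210, log2 change -1.11, limma adjusted p = 0.369, and 0.0446 with the block) fell. The synthesis enzyme KAO2, outside that list, rose in 5 of 11 (LAGI01_60121, log2 change 1.90, limma adjusted p = 0.0558, and 0.0148 with the block). Cytokinin had 2 rises and 2 falls of 125 on the list (1.6% each, near the shares over all sequences), and 3 rises (3.8%) and 0 falls of 79 in its MapMan class. The degrading enzyme CKX3 rose in 2 of 12 (LAGI01_14410, log2 change 1.26, limma adjusted p = 0.266, and 0.0199 with the block) and the response regulator ARR18 fell (LAGI01_12950, log2 change -1.24, limma adjusted p = 0.373, and 0.0338 with the block). MAX2, the F-box protein of strigolactone perception, fell (LAGI01_15096, 5.5, 13.8 and 16.6 to 2.8, 6.8 and 6.7 RPKM, log2 change -1.03, limma adjusted p = 0.733, and 0.0336 with the block), with overlapping groups.

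Calls in transcription factor families are given beside 1.61% rising and 1.32% falling over all sequences. WRKY factors had 8 rises (2.84%) and 5 falls (1.77%) of 282. WRKY40 rose in 2 of 22 sequences (LAGI01_48896, 2.4, 2.4 and 3.4 to 6.6, 8.7 and 9.2 RPKM, limma adjusted p = 0.121, and 0.0151 with the block), while the median of the 22 was -0.46 and their summed level was 395.8, 732.3 and 706.2 RPKM in sufficient and 205.7, 551.3 and 568.5 in proteoid roots. The bHLH family had 13 rises (5.58%) and 14 falls (6.01%) of 233, and its rises include the 11 iron regulators above. AP2 and ERF factors had 3 rises (2.59%) and 8 falls (6.9%) of 116, with an AP2 domain protein (LAGI01_34286) at 5.8, 25.8 and 24.3 and 0.5, 5.7 and 5.9 RPKM (log2 change -2.23, SE 0.878, limma adjusted p = 0.616, and 0.00878 with the block). MYB factors had 2 and 3 of 362 (0.552% and 0.829%), both below the shares over all sequences, and NAC factors 2 (1.71%) and 0 of 117. The GRAS list had 0 of 83 called by limma with either test (6 at an unadjusted p below 0.05 without the block, and 4 higher and 7 lower with it). That list does not hold the DELLA repressor RGA1 given above, also a GRAS factor, which fell. A myb factor (LAGI01_50728) fell from 9.9, 4.4 and 2.5 to 0.9, 0.6 and 0.9 RPKM (log2 change -2.05, SE 0.443, limma adjusted p = 0.247, and 0.0414 with the block). A sequence of the co-chaperone J20 (LAGI01_65224) stood at 17.1, 50.4 and 50.1 and 0.2, 10.2 and 10.7 RPKM (log2 change -3.03, SE 1.11, limma adjusted p = 0.568, and 0.041 with the block), with replicate 1 far below the others in both groups. It was the 1 called of 6 J20 sequences, whose median was 0.49. Together the 6 summed to 47.4, 130.4 and 174.9 RPKM in sufficient and 44.9, 114.9 and 173.3 in proteoid roots.

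Calls among markers of root tissues are given beside 1.61% rising and 1.32% falling over all sequences. Founder cells of lateral roots, read from LBD16, LBD29, LRP1 and PUCHI, had 2 falls among 13 sequences (15.4%), 0 rises and a median of -0.75. Of the 13 changes 12 lay below 0. With the block 7 lower and 1 higher passed an unadjusted limma p below 0.05. PUCHI (LAGI01_45912) went from 2.9, 2.6 and 1.0 to 0.4, 0.1 and 0.1 RPKM (log2 change -1.87, SE 0.389, limma adjusted p = 0.23, and 0.0369 with the block), and LBD29 (LAGI01_80776) passed narrowly (log2 change -1.48, limma adjusted p = 0.356, and 0.0497 with the block). Meristem and division markers had 1 fall among 146 (0.685%), in PLT2 (LAGI01_82230, log2 change -1.48, limma adjusted p = 0.488, and 0.0319 with the block), and summed to 3251.0, 2428.4 and 2568.9 RPKM in sufficient and 3657.5, 2890.7 and 3329.8 in proteoid roots. Root hair markers had 2 rises among 20 (10%), both ATEXPA7, but 16 of the 20 changes lay below 0 and 4 above, with a median of -0.12. The root hair list summed to 92.8, 83.2 and 74.5 and 117.6, 98.6 and 73.7 RPKM. Endodermis markers had 1 rise among 27 (3.7%), in MYB36, and sums of 111.8, 102.1 and 102.4 and 162.7, 116.9 and 131.2 RPKM, and xylem markers 1 rise among 86 (1.16%) and sums of 1189.2, 1186.7 and 1061.4 and 1205.8, 860.4 and 731.5. The label of root was checked against leaf markers: the antenna protein LHCB2.1 (LAGI01_48713) stood at 1.7, 0.3 and 0.5 and 4.3, 1.3 and 1.1 RPKM in roots against 2656.3, 1653.2 and 1530.5 in sufficient leaves. The 20 photosynthetic markers that passed the filter summed to 154.1, 128.2 and 140.6 and 124.5, 185.9 and 161.4 RPKM in roots, and 0 were called by limma with either test (0 at an unadjusted p below 0.05 without the block and 7 higher with it). Nodule, phloem and root cap markers also had 0 called of 13, 11 and 5 (0 in each at an unadjusted p below 0.05 without the block), and the sum of the nodule list was lowest, at 111.4 RPKM, in deficient replicate 1. Seed markers had 2 falls of 27 (7.41%). The part of these tissues in the results was not tested.

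Clock genes were called with the block at shares above those over all sequences, and 0 passed without it (limma). The list of morning genes held 26 tested sequences, all copies of 1 description, LHY. They summed to 49.6, 15.5 and 14.5 RPKM in sufficient and 96.3, 44.1 and 40.6 in proteoid roots. These LHY copies rose in 4 of 26 (15.4%, against 1.61% over all sequences), among them LAGI01_695 (log2 change 1.34, limma adjusted p = 0.605, and 0.0453 with the block). All 26 changes were above 0, and all 26 passed an unadjusted limma p below 0.05 with the block. As copies of 1 description, they do not stand for separate genes. The evening genes summed to 144.8, 279.1 and 279.9 and 90.8, 195.8 and 212.9 RPKM. They fell in 2 of 33 (6.06%, against 1.32%), both GI (LAGI01_7905, log2 change -0.84, limma adjusted p = 0.512, and 0.045 with the block). Of the 33 changes 30 were below 0. With the block 16 lower and 1 higher passed an unadjusted limma p below 0.05. Within each replicate number the LHY sum was higher and the evening sum lower in proteoid roots. The part of harvest time in the results was not tested. Ribosomal proteins, at 525 sequences, had 0 calls by limma with either test and a median of 0.15 (1 at an unadjusted p below 0.05 without the block, and 19 higher and 3 lower with it). Their sums of 36412.2 and 40251.9 RPKM in the libraries of replicate 1 stood above the 18015.1 to 22481.3 of the other 4.

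By MapMan class, 32 of 35 top-level classes with at least 30 sequences held a call with the block. Metal handling had 31 rises and 2 falls of 189, glycolysis 27 and 0 of 351, and gluconeogenesis and glyoxylate 6 and 0 of 42. The class of the tricarboxylic acid cycle and organic transformation had 12 and 0 of 324. That class is wider than the cycle itself, and on the list of malate and citrate enzymes above 2 of 160 rose. Lipid metabolism had 41 rises and 30 falls of 1306. Falls outnumbered rises in signalling, with 84 (2.14%) against 23 (0.586%) of 3925, and in cell wall, with 42 (3.52%) against 31 (2.6%) of 1192. The large classes of protein (78 and 71 of 10435), RNA (95 and 100 of 8373) and cell (12 and 12 of 2930) were close to even. Their shares, from 0.41% to 1.19%, lay below the 1.61% rising and 1.32% falling over all sequences. Biodegradation of xenobiotics, sulfur assimilation and fermentation, with 50, 39 and 87 sequences, had 0 calls by limma with either test (4, 6 and 5 at an unadjusted p below 0.05 without the block).

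One level down, 29 of 196 classes with at least 10 sequences had a share of rises at least 3 times that of all sequences, and 29 a share of falls as much. The classes of rises include metal acquisition, with 9 of 22 sequences, glycolipid synthesis, with 23 of 63, phosphate transport, with 16 of 69, and acid and other phosphatases, with 35 of 216. Metal acquisition had the same number of rises and the same largest change (4.55) as FRD3 above, so its rises may be those of FRD3. Metal binding had 17 of 122 and potassium transport 9 of 168. Classes of falls include sugar carriers, with 26 of 252, pectin esterases, with 14 of 137, thioredoxins, with 14 of 245, jasmonate, with 7 of 125, and glycine hydroxymethyltransferase, with 6 of 42. The last is SHM7, an enzyme of serine and one-carbon metabolism that fell in 6 of 10 sequences (LAGI01_18675, log2 change -1.06, limma adjusted p = 0.708, and 0.024 with the block). The thioredoxin class contains the repeat protein TTL1, with LAGI01_14466 at log2 change -1.11 (limma adjusted p = 0.138, and 0.0213 with the block).

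Transcripts with no informative description were also among the rises. Of the 87 that passed both tests 15 have none, and among them LAGI01_63011 went from 1.1, 1.0 and 0.7 to 48.6, 32.2 and 30.8 RPKM (log2 change 4.70, SE 0.253, limma adjusted p = 0.00431, and 0.000869 with the block) and LAGI01_69637, the steadiest, from 23.0, 24.3 and 22.7 to 117.2, 129.7 and 147.8 (log2 change 2.46, SE 0.233, limma adjusted p = 0.0276, and 0.00447 with the block). The single fall that passed both tests, LAGI01_75672, is also without description, at 14.3, 19.7 and 18.3 and then 2.3, 0.9 and 1.2 RPKM (log2 change -3.24, SE 0.302, limma adjusted p = 0.027, and 0.00994 with the block). A larger loss in RPKM with the block was LAGI01_59112, from 198.1, 162.6 and 98.2 to 27.1, 59.5 and 24.2 (log2 change -2.10, SE 0.449, limma adjusted p = 0.241, and 0.0275 with the block). The groups of these 4 did not overlap.

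The sequences called make up a small part of each library. The 86 that were higher in both tests held 0.0221%, 0.0277% and 0.025% of the summed RPKM in sufficient roots and 0.32%, 0.333% and 0.361% in proteoid roots. All 1125 rises together held between 0.844% and 0.917% in sufficient and between 2.5% and 2.78% in proteoid roots, and the 926 falls between 1.6% and 2.64%, then between 0.594% and 1.09%. These shares use the values that chose the sequences and carry no test. The median size of a rise was 1.38 and of a fall 1.16 on the log2 scale, and 71 rises and 8 falls exceeded 8-fold.

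Leaves served to ask which root changes differ from the leaf response. The difference of the responses, fitted by limma over all 12 libraries, was called in 68 sequences (0.0972%), 66 of them positive (0.0943%), meaning a higher change in roots, and 2 negative (0.00286%). Of the 87 sequences that passed both root tests 41 were among them. The fit shares its spread between roots and leaves, which for sequences near 0 in leaves can understate the spread between root libraries. PAP10 (LAGI01_35427) stood at 0.0, 0.0 and 0.0 RPKM in sufficient and 0.3, 1.3 and 1.1 in deficient leaves (difference 5.96, limma adjusted p = 3.45e-05), FRD3 (LAGI01_20061) at 0.0, 0.0 and 0.0 and 0.0, 0.0 and 0.0 (4.03, limma adjusted p = 0.000398) and formamidase (LAGI01_48402) at 2.7, 4.8 and 5.0 and 5.4, 5.2 and 1.5 (4.04, limma adjusted p = 0.0182). Malate synthase (LAGI01_69392) was at 0.1, 0.0 and 0.1 and 0.0, 0.0 and 0.0 (3.28, limma adjusted p = 0.00299). One deficient leaf library, replicate 3, stood apart from the rest, with 70.91% of its RPKM in its 20 largest sequences against 12.51% to 17.98% in the other leaf libraries. Without it 31 differences were called. Of the 1125 rises 510 had a change above 0 in leaves, and of the 926 falls 528 had one below 0. The same shares over all sequences tested are not given, so these counts cannot be read as agreement or disagreement between the tissues.

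**Figure D5:**
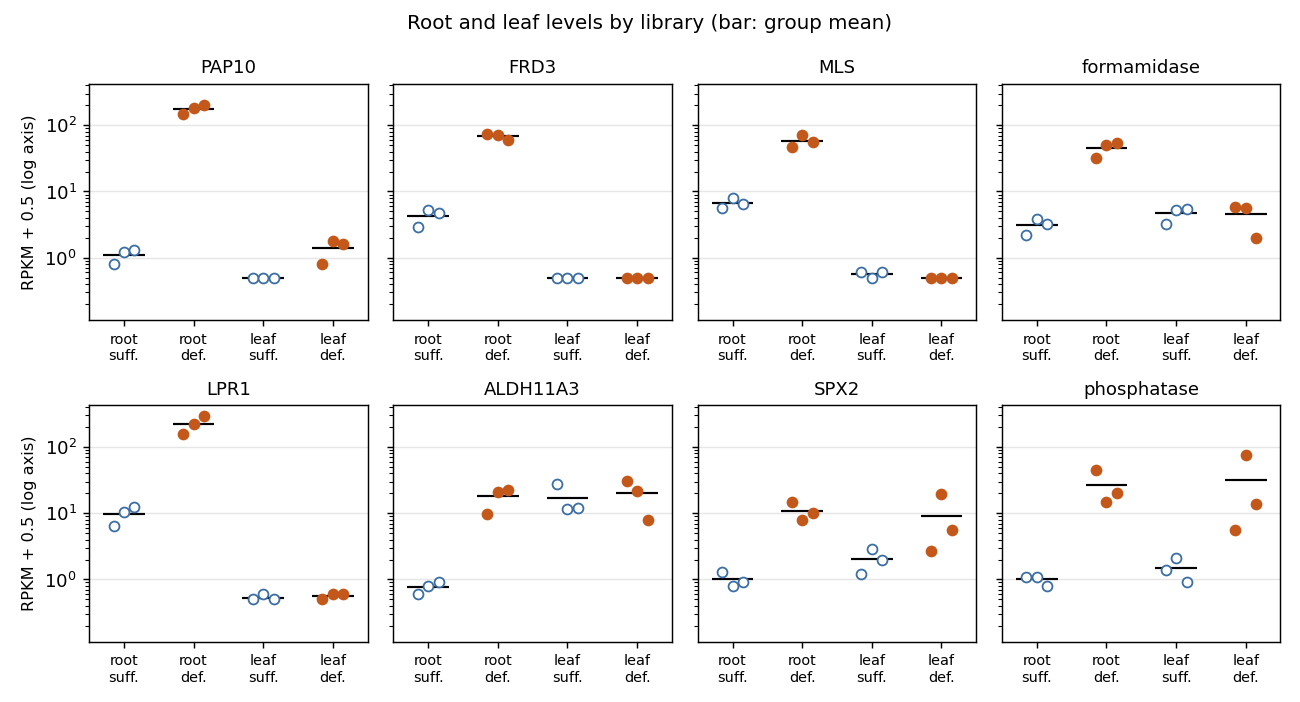
Each panel is 1 sequence and each point 1 library, as RPKM + 0.5 on a log axis, in sufficient roots, deficient roots, sufficient leaves and deficient leaves from left to right, with a bar at the group mean. FRD3 and LPR1 are at or near 0 in all leaf libraries, and SPX2 and the phosphatase reach 18.8 and 75.9 RPKM in a deficient leaf library.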

How the data were processed

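Poly-A RNA was measured by RNA sequencing in 12 libraries, per the labels' protocols with single reads of 76 cycles on an Illumina Genome Analyzer, and the 6 root libraries are compared here. Bowtie was used, per the submitters' processing notes, with neither version nor role given. The values deposited by the authors were taken to be RPKM, a unit that the labels and files used here do not name. They carry 1 decimal, and they sum to 802814.9 to 842749.4 in the root libraries. Read counts were not used, so the depth is unknown and no counting intervals are given. The handling of reads matching more than 1 sequence is not given in the sources used here. Names and classes come from the deposited annotation, and no genome positions or sequences are given.

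Sequences reaching 1 RPKM in 3 or more of the 6 root libraries were kept and put on log2(RPKM + 0.5), which understates the change of low sequences. The 2 groups were compared with limma 3.58.1 (R 4.3.3), its prior variance following intensity, with Benjamini-Hochberg adjustment over all 69953 sequences, two-sided. The fit with the replicate number as a block is given beside it. Same-numbered libraries deviated together from their group means (correlations of 0.784, 0.457 and 0.702 for replicates 1 to 3), so the numbers were taken to pair them. Sufficient replicate 2 also correlated with deficient replicate 3 at 0.496, and sufficient replicate 3 with deficient replicate 2 at 0.528. These values set replicate 1 apart and do not settle how replicates 2 and 3 pair. The difference of root and leaf responses was fitted to all 12 libraries. Tables and figures used Python 3.11.15, pandas 2.3.3, numpy 2.4.6 and matplotlib 3.10.9.

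The comparison, gene lists and rule for names were chosen with earlier results of these data known. The rule took the 20 largest rises and falls and the 5 largest mean differences among non-overlapping calls without the block with a mean of at least 5 RPKM, and up to 4 members of each list or class by adjusted p. It covers 72 of the 141 sequences named by identifier, and the other 69, most of them passing with the block alone, were chosen after their values were seen, as were the few genes named without one. A count-based test planned for counts did not apply to these values. Alternatives covered samples, pseudocount, filter, scaling, block, sequencing format, prior variance, threshold and leaving out libraries.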

Additional observations from a re-analysis of the deposited data

Results flagged for a closer look

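Of the 141 sequences named by identifier, 30 had a root response that differed from the leaf response in the limma fit over all 12 libraries (values are the root log2 change minus the leaf log2 change, with the limma adjusted p). For acid phosphatase PAP10 these were LAGI01_35427 (5.96, adjusted p = 3.45e-05), LAGI01_21085 (5.83, adjusted p = 3.45e-05), LAGI01_49867 (5.29, adjusted p = 3.45e-05) and LAGI01_74776 (5.23, adjusted p = 3.45e-05). For the phosphate transporter PHT5 they were LAGI01_79525 (4.92, adjusted p = 0.000543), LAGI01_86377 (4.36, adjusted p = 0.000208) and LAGI01_103126 (4.0, adjusted p = 0.00796). For the citrate exporter FRD3 they were LAGI01_20061 (4.03, adjusted p = 0.000398) and LAGI01_21605 (4.57, adjusted p = 0.0353), and for malate synthase MLS LAGI01_77756 (3.57, adjusted p = 0.00331), LAGI01_69392 (3.28, adjusted p = 0.00299) and LAGI01_27673 (3.06, adjusted p = 0.0479). The multicopper oxidases were LPR1 LAGI01_52976 (4.45, adjusted p = 0.000543) and LPR2 LAGI01_46294 (3.91, adjusted p = 0.000543).

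Among peroxidases the limma differences were LAGI01_45494 (4.66, adjusted p = 3.45e-05), LAGI01_58965 (4.61, adjusted p = 3.45e-05), LAGI01_72871 (4.01, adjusted p = 0.00016) and LAGI01_82379 (3.65, adjusted p = 0.000721). The iron genes were BHLH038 LAGI01_54427 (4.08, adjusted p = 0.000207) and ATIREG1 LAGI01_21878 (3.28, adjusted p = 0.0302), with a further bHLH factor, LAGI01_44725 (3.95, adjusted p = 0.00796). The carbon enzymes were ALDH11A3 LAGI01_24999 (4.31, adjusted p = 0.0324) and formamidase LAGI01_48402 (4.04, adjusted p = 0.0182). Carriers and channels were PDR6 LAGI01_20132 (2.69, adjusted p = 0.0361), PTR2 LAGI01_23973 (2.40, adjusted p = 0.0479) and PIP2F LAGI01_79428 (3.55, adjusted p = 0.0182). The putative nodulin was LAGI01_74540 (4.86, adjusted p = 0.0001), the nodulin MtN21 protein LAGI01_39882 (2.27, adjusted p = 0.033) and the expansin-like ATEXLB1 LAGI01_53567 (2.76, adjusted p = 0.0478). A single difference was negative, in the pectinesterase LAGI01_81839 (-2.42, adjusted p = 0.0479), which fell in roots. In 29 of the 30 the change was higher in roots. Without deficient leaf replicate 3, which stood apart, 9 of the 30 differences no longer passed. With a replicate block within each tissue all 30 passed. Of the 30 sequences, 24 were at 1 RPKM or less in every leaf library. At such levels the spread between leaf libraries on the log2 scale is near 0. A spread shared by roots and leaves can then understate that between root libraries and make the adjusted p-values smaller.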

How the results depend on the processing

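No alternative turned the direction of a named root change it tested (all 141 sequences, but 118 under the stricter filter and 4 with values summed per description). Without the block the 87 calls became 330 (264 higher, 66 lower) when all 12 libraries shared the spread and 397 without deficient leaf replicate 3. They became 382 in the barcoded libraries alone, 25 with values summed per description and 227 at a threshold of 0.10. With the replicate block the count was 2051, with the replicate block within each tissue 1096 and with sequencing format as a covariate 3408. Leaving out a library gave 6 to 97 calls. Pseudocounts of 0.1 and 1, no filter or a stricter one, both scalings, no intensity trend and robust variances gave 64 to 114. Median-of-ratios scaling gave 90 higher and 10 lower. Alternatives to the replicate block were chosen after seeing the data. With it the count of 2051 fell to 42 without the filter, 1256 without the intensity trend and to 54, 66 and 0 without replicates 1, 2 and 3 (7689 passed an unadjusted p below 0.05 without replicate 3), and was 5473 at 0.10. It ran from 1464 to 2354 under the other pseudocounts, filter and scalings. Of the named sequences 110, 108 and 137 lost their block call without replicates 1, 2 and 3, which leaves 1 residual degree of freedom, and 114 lost it without the filter, 11 with median-of-ratios scaling, 11 without the trend and 8 with a pseudocount of 0.1. The cause of these losses was not tested. The 68 root-minus-leaf calls became 31 without deficient leaf replicate 3 and 225 with the replicate block within each tissue. With median-of-ratios scaling the median change of the MYB list went from 0.01 to -0.01. Those of cytokinin genes and of heat shock proteins went from 0.03 to 0.00. The depth is unknown, so what sampling of reads adds to the spread of low sequences cannot be given.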
